A study of Mus musculus with 6 samples.

Results

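The proteasome is the multi-subunit protease that degrades proteins tagged with ubiquitin. Its core particle, the 20S, is a barrel of stacked rings in which the alpha subunits form the gates and the beta subunits hold the proteolytic sites. The 19S regulatory particle binds the tagged protein, removes the ubiquitin, and threads the chain into the core with a ring of ATPases. The 3 catalytic beta subunits are encoded by Psmb5, Psmb6 and Psmb7. In cells exposed to interferon-gamma they can be replaced in newly built cores by Psmb8, Psmb9 and Psmb10. This gives the immunoproteasome, which is known for its part in producing peptides for MHC class I.

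The genes of the constitutive proteasome were examined here in tumor-associated macrophages (TAMs). They were taken as the protein-coding genes with symbols from Psma to Psmg followed by a digit, without the immunoproteasome subunits Psmb8, Psmb9 and Psmb10, and with a summed count of 10 or more. This gave 46 of the 14776 protein-coding genes tested. They were the 8 alpha and 7 beta genes of the 20S, 6 ATPases, 3 other base subunits and 8 lid subunits of the 19S, 3 chaperones of 19S assembly and 4 of 20S assembly, and 6 genes of activators and an inhibitor. The symbol rule also took in Psmc3ip, a recombination factor that is no proteasome subunit. The filter on low counts is part of the selection, so all 46 pass it by definition, and 43 had 20 or more counts in every library.

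The TAMs came from untreated female C57Bl/6J mice, 8 weeks of age, bearing intradermal YUMM1.7 tumors, a mouse melanoma cell line. On day 21 live CD45+ CD11b+ cells were sorted by FACS into F4/80high and F4/80low fractions, after a lineage-negative (Lin-) gate that the study's methods state and the labels do not, F4/80 being the macrophage surface protein encoded by Adgre1. There were 3 libraries of each subset, from 3 independent experiments with pooled tumors, so the libraries with the same replicate number form a pair. The p-values of the blocked fit are for the difference between subsets within pairs. Their error joins a gene's own spread over these 3 pairs with that of other genes, as edgeR moderates it. An SE or interval is therefore not the spread of 1 gene's pairs alone. Differences in level between experiments are taken out by the block. Total counts were 30292061, 43604373 and 16045281 in the F4/80high libraries and 32967733, 32560608 and 16204810 in the F4/80low libraries, in the order of replicates 1 to 3, which is used throughout.

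The sort marker and the markers of other cells were read first. Adgre1 was at 273, 539 and 360 CPM (read counts normalised to a common library size with TMM factors) in F4/80high and at 243, 326 and 183 CPM in F4/80low TAMs, higher in F4/80high in each pair, with a log2 fold change of 0.62 ± 0.21 (SE) that did not pass the adjusted test (edgeR, adjusted p = 0.350). Of 9 macrophage markers 8 were higher in F4/80high, 3 of them past the test, with summed levels of 5685 to 29092 CPM in F4/80high and 5071 to 12520 CPM in F4/80low. The 12 neutrophil markers were all lower in F4/80high, 6 past the test (752 to 2146 against 1532 to 4902 CPM), and the 10 eosinophil markers were all lower with none past it (180 to 542 against 411 to 1548 CPM). The 6 fibroblast markers were lower (438 to 1526 against 1047 to 1888 CPM), and 16 of 17 cell cycle genes were higher (568 to 1078 against 500 to 758 CPM), none past the test in either list. The 8 T and NK cell markers were all higher without passing it (234 to 1537 against 107 to 691 CPM), the B cell markers summed to 9.61 to 130 and 6.60 to 118 CPM, and 2 of 6 melanoma markers were tested, summing to at most 3.07 CPM. The share of these cells in the proteasome values was not tested, and fewer cells of a type cannot be told apart from less RNA per cell in bulk samples.

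Replicate 3, which the study marks as its second batch, stood apart in both subsets. Its libraries had 89.4% and 90.0% of counts in protein-coding genes, against 97.4% to 98.1% in the others, and 3 genes (Lars2, Gm23935 and Gm15564) held 17.1% and 16.1% of their counts, against 0.378% to 0.609%. The 46 proteasome genes made up 0.118% and 0.115% of the counts there, against 0.454% to 0.601% in replicates 1 and 2. Pair values are therefore given beside most results below.

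Psmb5 and Psmb6 encode 2 of the 3 constitutive catalytic subunits that the immunoproteasome replaces. Their promoters are printed here because they hold the letters TGACNNNGC, the core of the antioxidant response element known from proteasome gene promoters. Psmb7, which encodes the remaining catalytic subunit, had no matched promoter and was not searched. Psmb5 lies at chr14:54614119-54618022 on the minus strand and Psmb6 at chr11:70525367-70527858 on the plus strand (GRCm38, GENCODE M21). The 250 bases before the RefSeq transcript start (GRCm38.p6) are given 5′ to 3′ on the strand of the gene, with the motif in capitals, which begins 47 bases before the start in Psmb5 and 9 bases before it in Psmb6.
Psmb5, chr14:54617996-54618245, minus strand: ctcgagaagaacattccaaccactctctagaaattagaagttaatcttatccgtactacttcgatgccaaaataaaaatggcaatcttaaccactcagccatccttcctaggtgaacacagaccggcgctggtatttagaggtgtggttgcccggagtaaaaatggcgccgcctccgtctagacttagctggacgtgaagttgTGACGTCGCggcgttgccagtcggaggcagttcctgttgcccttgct
Psmb6, chr11:70525107-70525356, plus strand: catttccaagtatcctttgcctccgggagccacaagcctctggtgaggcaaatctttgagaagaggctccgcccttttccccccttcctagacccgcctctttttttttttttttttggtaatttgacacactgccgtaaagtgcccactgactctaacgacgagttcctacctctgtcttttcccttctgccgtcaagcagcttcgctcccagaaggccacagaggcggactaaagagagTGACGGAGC

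RefSeq promoters of 300 bases (250 before to 50 after the start) were matched by symbol for 38 of the 46 genes, giving 41 promoters. The letters TGACNNNGC, searched on both strands, were found in 6 of the 41 (14.6%), against 12.4% of 32851 mouse promoters of that length, in Psmb5, Psmb6, Psmc6, Psmd9, Psmd12 and Psme4. The interferon-type letters GAAANNGAA were in 7 of 41 (17.1%, against 8.56% of all promoters) and CCAAT, the box bound by NF-Y, in 13 of 41 (31.7%, against 37.4%). Of the immunoproteasome promoters, that of Psmb9 held CCAAT and none held either of the other motifs. These are descriptions of letters in a window and not of binding.

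The first question was how much of each proteasome transcript the TAMs held. Compared per length (RPKM, the CPM divided by the deposited gene length in kilobases), the median gene of the 46 was at 46.3, 49.1 and 16.7 RPKM in F4/80high and at 37.1, 49.0 and 14.5 RPKM in F4/80low TAMs. The median of all genes tested was between 3.21 and 3.57 RPKM in every library. Summed over the 46 genes, the level was 4401, 4924 and 2043 CPM in F4/80high and 3754, 4805 and 2126 CPM in F4/80low, so the subsets overlapped and the F4/80high library was the higher one in pairs 1 and 2 but not in pair 3.

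**Figure D1:**
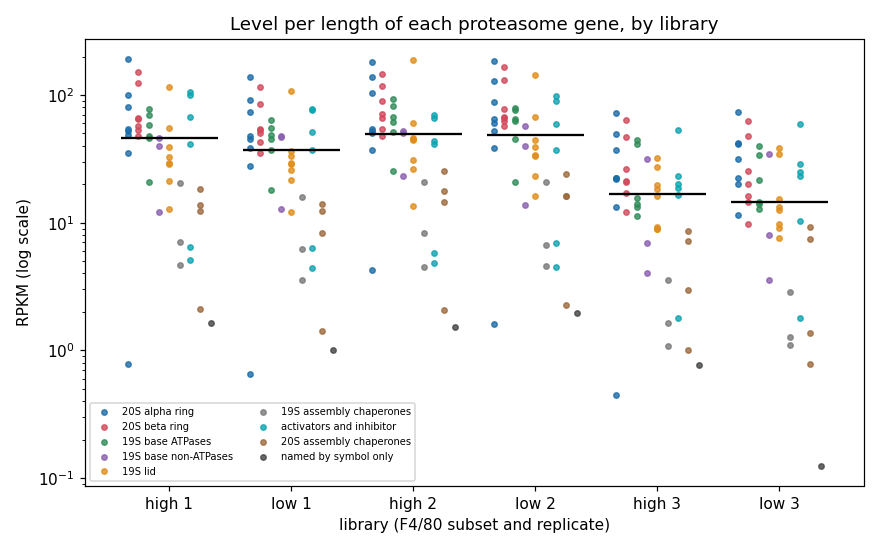
The plot shows RPKM (log scale) of the 46 genes in each library, coloured by their place in the proteasome, with a black line at the library's median; Psma8, with 0 counts in F4/80low replicate 3, is not drawn there. The medians lie between 37.1 and 49.1 in replicates 1 and 2 and at 16.7 and 14.5 in replicate 3.

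The subunits of the core particle are present in equal numbers in it, and their transcripts differed by less than 10-fold. Over the 14 genes of the 20S without Psma8, the highest was 4.85 to 7.48 times the lowest within a library. By the deposited length of 944 bases, Psma2, an alpha ring subunit, was the highest in all 6 libraries, at 191, 182 and 72.3 RPKM in F4/80high and 138, 185 and 73.0 RPKM in F4/80low, and the lowest was Psma3 in replicates 1 and 2 and Psmb3 in replicate 3. The 17 genes of the 19S spread over 8.72 to 13.9 times within a library, with Psmd8, a lid subunit, highest in replicates 1 and 2, Psmc1, an ATPase, highest in replicate 3, and Psmd1 or Psmd11 lowest. The assembly chaperones Psmd5 and Psmd9 and the inhibitor Psmf1 had means of 5.08, 3.37 and 3.73 RPKM over the 6 libraries, below every 20S and 19S subunit other than Psma8, the testis form of an alpha subunit, at a mean of 1.30 RPKM. Psmc3ip was the lowest of the 46, at a mean of 1.17 RPKM.

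These orders depend on the gene length used. The deposited length equalled the merged length of all GENCODE M21 exons for 30 of the 46 genes and not for Psma2 (merged length 3673 bases), Psmb7 (1214 deposited, 3421 merged) or Psmd8 (1540 and 3057), among others. With merged lengths for all, a choice made after the data were seen, Psma2 was at 49.0, 46.8 and 18.6 RPKM in F4/80high and 35.4, 47.5 and 18.8 RPKM in F4/80low and no longer led. The highest 20S gene was then Psma6, Psmb2 or Psmb4, depending on the library, the lowest was Psmb7 in all 6, and the highest was 5.10 to 8.44 times the lowest. The 19S spread over 4.52 to 10.7 times, and Psma8 became the lowest of the 46, at a mean of 0.880 RPKM. Which length fits the reads counted cannot be told from the tables, so the rank of a single gene is uncertain, while comparisons of 1 gene between libraries do not depend on it.

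The order of levels was more alike within a batch than between batches, whichever the subset. Over the 31 genes of the 20S and 19S without Psma8, Spearman's rho between libraries was 0.938 to 0.978 among the 4 libraries of replicates 1 and 2 and 0.936 between both libraries of replicate 3, and 0.539 to 0.647 between a library of replicate 3 and one of the others. These values describe genes that share libraries and gene lengths.

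The second question was whether the subsets differed. None of the 46 genes passed the test in either direction (edgeR quasi-likelihood test with the replicate pair as a block, Benjamini-Hochberg over 14776 genes, adjusted p from 0.627 to 0.999). Over all genes 76 (0.514%) passed an adjusted p under 0.05 and a change above 2-fold, 34 with higher levels in F4/80high (0.23%) and 42 in F4/80low (0.284%), and a list of 46 would at this share hold less than 1. In the same edgeR fit, none of the 46 had an unadjusted p under 0.05, while 9.84% of all genes did. The lowest was that of Psme3, at 0.105. DESeq2 called none of the 46 either, beside 357 of all genes. In none of the 46 were the 3 F4/80high libraries clear of the 3 F4/80low libraries in CPM, beside 5.16% of all genes, a share at which a list of 46 would hold about 2.

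The differences were small and bounded. The median log2 fold change of the 46 genes, F4/80high against F4/80low, was 0.15, beside -0.0046 over all genes tested, and the median size regardless of sign was 0.16, beside 0.35. The 95% interval of the fold change lay within 2-fold in both directions for 42 of the 46 (91.3%), beside 41.0% of all genes. The exceptions were Psma8, Psmg1, Psmg3 and Psmc3ip, all at a mean under 20 CPM. Among genes at a mean of 20 CPM or more, the interval lay within 2-fold for 40 of 40 proteasome genes and for 75.1% of 6824 genes, and the median log2 fold changes were 0.14 and -0.0052. The sign was positive for 35 of the 46 (76.1%, beside 49.6% of all genes).

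**Figure D2:**
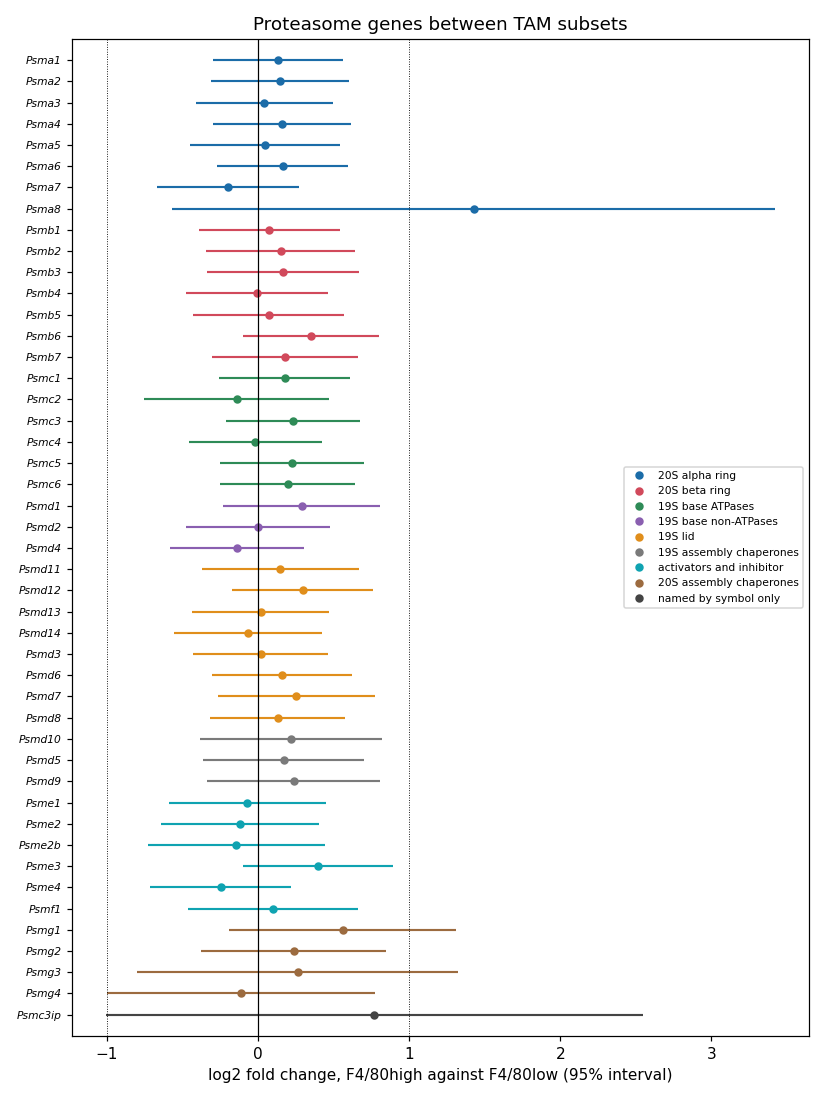
The plot shows the log2 fold change (point) and its 95% interval (line) of each of the 46 genes from the blocked edgeR fit, with positive values for a higher level in F4/80high and dotted lines at a 2-fold change. All 46 intervals include 0, and 42 lie between the dotted lines.

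The lean to positive values came mostly from pair 1. The F4/80high library was the higher one for 41, 24 and 26 of the 46 genes in pairs 1, 2 and 3 (89.1%, 52.2% and 56.5%, beside 50.9%, 46.6% and 48.7% of all genes), with median log2 differences of 0.25, 0.02 and 0.05. In all 3 pairs 14 genes were higher in F4/80high (30.4%, beside 16.0% of all genes) and 1, Psmd4, was lower (2.17%, beside 18.1%). In pair 1 the summed T and NK cell markers were 1.51 and the B cell markers 0.81 higher in F4/80high on the log2 scale, against -0.71 and -1.02 in pair 2 and 1.12 and 0.54 in pair 3, and their part in these values was not tested. T, NK and B cells are among those a Lin- gate is meant to remove.

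**Figure D3:**
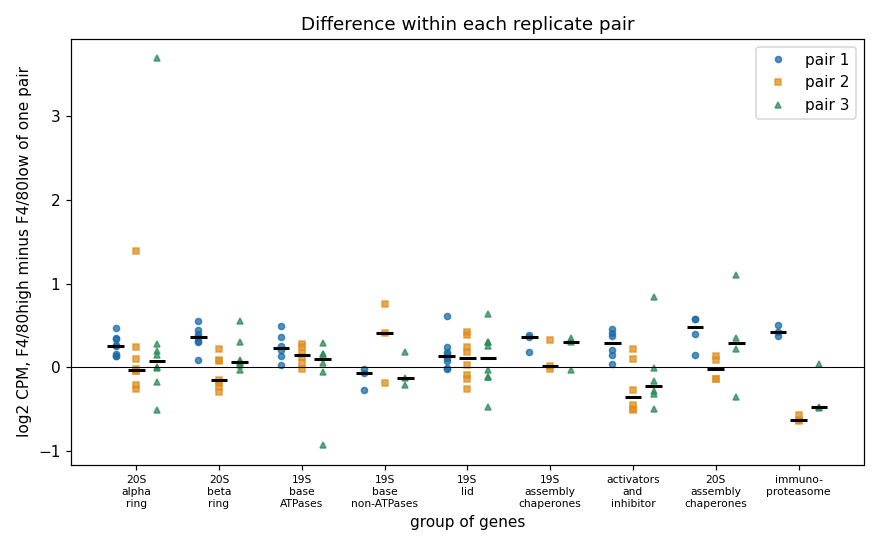
The plot shows, for each group of genes, the difference in log2 CPM between the F4/80high and F4/80low libraries of pair 1 (circles), pair 2 (squares) and pair 3 (triangles), with black lines at the group's median in that pair; Psmc3ip is left out and the highest triangle is Psma8, whose F4/80low library had 0 counts. Most circles lie above 0, and those of the immunoproteasome genes lie between 0.37 and 0.50 in pair 1 and between -0.64 and -0.57 in pair 2.

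In the alpha ring, which gates the 20S, 7 of 8 genes had a positive log2 fold change, with a median of 0.14. Psma7 had the only negative value (-0.20, 95% interval -0.67 to 0.27), at 160, 160 and 67.3 CPM in F4/80high and 145, 187 and 96.2 CPM in F4/80low, higher in F4/80high in pair 1 and lower in pairs 2 and 3. Psma2, the most abundant by the deposited length, differed by 0.15 (interval -0.31 to 0.60), and its positive value rested on pair 1 (0.47, beside -0.023 and -0.014), turning to -0.019 without replicate 1. Psma8 had the largest fitted value of the list (1.43, interval -0.57 to 3.42) on few counts, with 53, 374 and 7 reads in F4/80high TAMs against 44, 111 and 0 in F4/80low TAMs, where a count of 0 allows a level of up to 0.342 CPM.

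In the beta ring, 6 of 7 genes had a positive value and the median was 0.15. Psmb5, the chymotrypsin-like subunit, was at 49.8, 61.8 and 18.1 CPM in F4/80high and 47.1, 58.9 and 17.4 CPM in F4/80low, with a log2 fold change of 0.07 ± 0.22 (SE, interval -0.43 to 0.57). Its pairs were nearly alike, at 0.08, 0.07 and 0.06. Psmb6, the caspase-like subunit, was at 123, 169 and 39.6 CPM against 99.96, 146 and 27.1 CPM, the largest positive value of the ring at 0.35 ± 0.20 (SE, interval -0.10 to 0.80), with the F4/80high library above its partner in 3 of 3 pairs. Psmb7, the trypsin-like subunit, was at 78.5, 80.5 and 20.6 CPM against 61.0, 76.2 and 19.5 CPM, a value of 0.18 ± 0.21 (SE, interval -0.30 to 0.66), also in 3 of 3 pairs. All 3 catalytic genes were thus higher in F4/80high within each pair, by amounts that the test did not separate from 0 (adjusted p = 0.955, 0.633 and 0.846 for Psmb5, Psmb6 and Psmb7). Psmb4, which has no catalytic site, had a value near 0 (-0.0052, interval -0.48 to 0.47) that turned to 0.039 with scaling by library size alone and to 0.10 without replicate 2.

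The ATPase ring of the 19S had 4 positive values of 6 and a median of 0.19. Psmc3 was at 124, 134 and 40.4 CPM in F4/80high and 96.6, 119 and 36.3 CPM in F4/80low, a log2 fold change of 0.23 (interval -0.21 to 0.67) that was positive in 3 of 3 pairs. Psmc2 had the lowest value (-0.14, interval -0.75 to 0.47) and split by batch, at 105, 128 and 56.4 CPM against 91.4, 105 and 108 CPM. It was higher in F4/80high by 0.20 and 0.28 in pairs 1 and 2 and lower by 0.94 on the log2 scale in pair 3, and without replicate 3 its value was 0.24.

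Of the other base subunits, Psmd4, a ubiquitin receptor, had a negative value (-0.14, interval -0.58 to 0.30), at 130, 141 and 19.4 CPM in F4/80high and 132, 161 and 22.5 CPM in F4/80low. Psmd1, the large scaffold of the base, was at 87.6, 168 and 29.4 CPM against 92.1, 99.9 and 25.8 CPM (0.29, interval -0.23 to 0.81), with its highest value in F4/80high replicate 2. Its pairs were -0.07, 0.75 and 0.18, and the value was 0.013 without replicate 2 and 0.48 without replicate 1. Psmd2, the other scaffold, had a value of 0.0019 (interval -0.47 to 0.48) with pairs of -0.27, 0.41 and -0.13.

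In the lid, 7 of 8 genes were positive, with a median of 0.14. Psmd12 was at 76.0, 121 and 24.6 CPM in F4/80high and 68.0, 90.1 and 19.9 CPM in F4/80low, a value of 0.29 (interval -0.17 to 0.76) with a higher F4/80high library in each pair. Psmd14, the deubiquitinase that removes the ubiquitin chain, was at 111, 126 and 77.5 CPM against 93.9, 124 and 108 CPM (-0.07, interval -0.55 to 0.42). Its sign turned without replicate 3, to 0.13. Over all 31 genes of the 20S and 19S without Psma8, the log2 fold changes ran from -0.20 to 0.35 with a median of 0.15, each interval lay within 2-fold, and the pair medians were 0.20, 0.05 and 0.05.

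The assembly chaperones were less abundant. The 3 chaperones of the 19S, Psmd5, Psmd9 and Psmd10, had values of 0.17, 0.24 and 0.22, each positive in pair 1 (0.18, 0.39 and 0.36) and mixed in sign over pairs 2 and 3 except for Psmd10. Of the 4 chaperones of the 20S, Psmg1 had the largest value (0.56, interval -0.19 to 1.31) on 658, 1221 and 37 counts in F4/80high and 444, 878 and 16 counts in F4/80low, with log2 differences of 0.57, 0.14 and 1.11 in the pairs. Psmg4 had the only negative one (-0.11, interval -0.996 to 0.774), which was 0.0011 without replicate 3. Psmc3ip had 119, 143 and 13 counts against 73, 144 and 2, with a value of 0.77 (interval -1.01 to 2.55).

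The activators and the inhibitor had the only negative median among the groups with more than 1 gene, -0.09, with 2 of 6 values positive. Psme3, the nuclear activator PA28 gamma, was at 122, 127 and 55.1 CPM in F4/80high and 110, 109 and 30.6 CPM in F4/80low, the lowest unadjusted p of the list with a value of 0.40 (interval -0.10 to 0.90), higher in F4/80high in 3 of 3 pairs. Psme4, the activator PA200, had the lowest value of the 46 (-0.25, interval -0.71 to 0.22), at 54.5, 48.4 and 138 CPM against 53.2, 58.5 and 196 CPM. Psmf1, the proteasome inhibitor PI31, was at 32.7, 31.0 and 11.4 CPM against 28.4, 29.1 and 11.5 CPM (0.10, interval -0.46 to 0.66).

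Psme1 and Psme2 encode the interferon-inducible activator PA28, and their differences had opposite signs in pairs 1 and 2. Psme1 was at 235, 153 and 117 CPM in F4/80high and 171, 216 and 131 CPM in F4/80low, and its log2 difference was 0.46, -0.50 and -0.17 in pairs 1 to 3 (fitted -0.07, interval -0.59 to 0.45). Psme2 was at 177, 116 and 35.5 CPM against 134, 158 and 44.3 CPM, with 0.40, -0.45 and -0.32 in the pairs (fitted -0.12, interval -0.64 to 0.40). Both were higher in F4/80high in pair 1 and lower in pairs 2 and 3, and without replicate 2 the fitted values were 0.11 and 0.020. Psme2b, a retrocopy of Psme2 with which it can share reads, gave 0.37, -0.51 and -0.29, and its counts are uncertain for that reason.

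The 3 immunoproteasome genes, which the selection left out, were compared with the constitutive subunits they replace. Psmb8 was at 157, 86.1 and 41.0 CPM in F4/80high and 117, 135 and 39.9 CPM in F4/80low (fitted -0.06, interval -0.62 to 0.49, adjusted p = 0.969). Psmb9 was at 152, 81.2 and 36.4 CPM against 107, 120 and 51.0 CPM (-0.18, interval -0.76 to 0.40, adjusted p = 0.880). Psmb10 was at 126, 82.7 and 39.8 CPM against 97.7, 128 and 55.3 CPM (-0.24, interval -0.80 to 0.31, adjusted p = 0.806). All were higher in F4/80high in pair 1 and lower in pair 2, as were Psme1 and Psme2, and the fitted value of Psmb8 was 0.20 without replicate 2. The summed T and NK cell and B cell markers had these signs in pairs 1 and 2 as well and were higher in F4/80high in pair 3, in cells sorted with the Lin- gate, and their part in these values was not tested.

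Per length, the ratio of Psmb8 to Psmb5 was 1.0004, 0.444 and 0.719 in F4/80high TAMs against 0.791, 0.727 and 0.727 in F4/80low TAMs. That of Psmb9 to Psmb6 was 0.629, 0.246 and 0.470 against 0.548, 0.422 and 0.962, and that of Psmb10 to Psmb7 was 1.54, 0.981 and 1.84 against 1.53, 1.60 and 2.71. The size of each ratio rests on the deposited lengths, and its difference between libraries does not. The groups overlapped in all 3 ratios, and F4/80high replicate 2 had the lowest value of each. The log2 ratios differed by -0.13, -0.54 and -0.42. A two-sided exact permutation test over the libraries, which leaves out the pairing, gave p = 0.7, 0.5 and 0.5 (each 0.7 after adjustment over 3 ratios, n = 3 per subset). Exact sign flips of the 3 pairs gave p = 0.75, 0.5 and 0.5. The smallest p is 0.1 in the permutation test and 0.25 with sign flips. Neither test could therefore pass the threshold used for genes, and no conclusion is drawn from them. Within pairs the first log2 ratio differed by 0.34, -0.71 and -0.02, the second by 0.20, -0.78 and -1.03 and the third by 0.0030, -0.71 and -0.56. Without replicate 2 the first difference was 0.16.

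**Figure D4:**
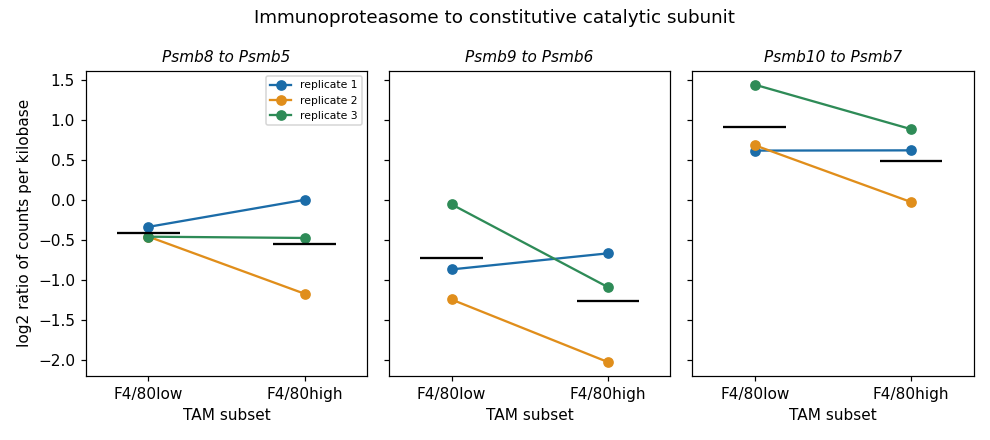
The plots show the log2 ratio of counts per kilobase of each immunoproteasome gene to its constitutive counterpart in each library, with lines joining the libraries of a replicate and black bars at the subset means. In replicate 2 the ratio is lower in F4/80high than in F4/80low in all 3 plots, and in replicate 1 it is higher, by 0.34, 0.20 and 0.0030.

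Another 28 genes of the ubiquitin-proteasome pathway were read (ubiquitin genes, shuttle factors, deubiquitinases, p97 and its cofactors and assembly and transcription factors). None passed an adjusted p under 0.05 in the edgeR fit, beside 0.514% of all genes, a share at which so short a list would be expected to hold none. A positive value was found for 19 (67.9%, beside 49.6% of all genes). An unadjusted p under 0.05 was found for 1 (3.57%, beside 9.84% of all genes). That gene was Usp14, a deubiquitinase of the proteasome, at 73.0, 128 and 94.2 CPM in F4/80high and 63.2, 75.2 and 63.0 CPM in F4/80low, higher in 3 of 3 pairs with a log2 fold change of 0.52 (interval 0.04 to 0.99, edgeR adjusted p = 0.452). Vcp, which encodes p97, had a value of 0.40 with pairs of -0.16, 0.56 and 0.79, and of 0.20 without replicate 3 and 0.67 without replicate 1. Uba6, a ubiquitin-activating enzyme, had a value of -0.29 with pairs of -0.41, 0.40 and -0.87, which was -0.0017 without replicate 3 and -0.68 without replicate 2. Neither kept its sign in all pairs. Zfand5, a proteasome-binding protein, had a value of -0.24 (pairs -0.45, 0.12 and -0.38), and Shfm1, a small lid subunit with a symbol outside the selection, one of -0.13 (pairs 0.22, -0.29 and -0.33). Nfe2l1, the transcription factor known for inducing proteasome genes when the protease is inhibited, differed by 0.33 (interval -0.27 to 0.92), with pairs of -0.37, 0.50 and 0.85, and of 0.067 without replicate 3.

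The largest contrast within the list was between batches and not between subsets. The log2 CPM in replicate 3 was lower than the mean of replicates 1 and 2 in both subsets for 42 of the 46 genes (91.3%, beside 46.7% of all genes), with a median of -1.54 beside -0.30 over all genes and 0.04 over genes at a mean of 20 CPM or more. Psmd5 was among the lowest, at -2.82 in F4/80high TAMs and -2.53 in F4/80low TAMs, as was Psmd4, at -2.79 and -2.69. Psmb4 was nearly level (-0.18 and -0.14). Psme4 was higher in replicate 3 in both subsets (1.42 and 1.81), as was Psma3 by a smaller amount (0.06 and 0.38). The difference correlated with gene length over the 6824 genes at 20 CPM or more (Spearman's rho 0.477) and little over the 46 (0.174), as a description across genes of the same libraries. Batch and experiment cannot be told apart here, since 1 pair made up the second batch.

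**Figure D5:**
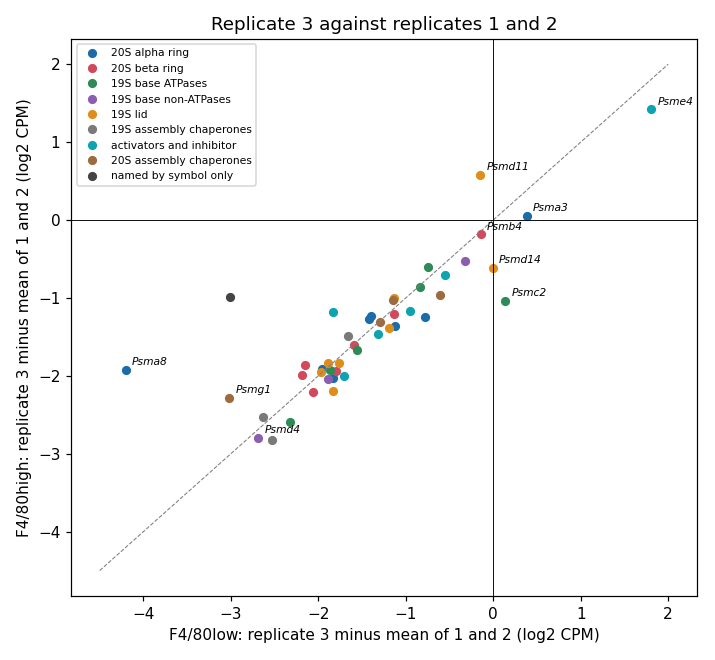
The plot shows, for each of the 46 genes, log2 CPM in replicate 3 minus the mean of replicates 1 and 2 in F4/80low (horizontal axis) and F4/80high (vertical axis), with a dashed line where both are equal. Most genes lie below 0 on both axes, and Psme4 lies highest on both, at 1.81 and 1.42.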

How the data were processed

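RNA of TAMs sorted on day 21 was sequenced from poly-A libraries in 6 libraries, 3 per subset. The study's methods state that the sorted cells were fixed before RNA extraction, and the effect of this on the counts was not tested. The authors deposited one table per library with raw read counts per gene, the gene length and the biotype, with no normalization. Per the labels and the paper, processing followed the sequencing center's pipeline; the aligner, counting rule, strand and annotation are not given in the sources used here. Gene IDs of the 46 genes were matched to GENCODE M21, and 30 of 46 deposited lengths equalled its merged exon length. The members and all gene lists were chosen with earlier results of these data known.

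Protein-coding genes with at least 10 counts in sum (14776 of 15989) were fitted in edgeR 4.0.16 (R 4.3.3, TMM, quasi-likelihood test) with replicate number as the block. The pairing comes from the experiments, both subsets being sorted from the same pooled tumors. Same-numbered libraries also deviated together from their subset means (r = 0.745, 0.729 and 0.907 over 10089 genes). Replicate 3 stood apart in both subsets, which makes replicates 1 and 2 deviate to the same side in both. Libraries of unlike number were not compared, so these r values do not show which libraries of replicates 1 and 2 form a pair. No libraries were duplicates. A gene was called at an adjusted p under 0.05 with a log2 fold change beyond 1 in either direction. Differences within pairs were taken on log2 CPM (prior count 2), batch differences log2 of CPM plus 0.1, and ratios counts plus 0.5. Alternatives were DESeq2 1.42.0, other scalings, filters, biotypes and designs, and leaving out each replicate, with merged exon lengths for levels added after seeing the data. Intervals are 95%. A count of 0 allows up to 3 counts, for counting error only. On simulated data for this comparison, 200 of 14776 genes were changed 4-fold, drawn only from genes with a mean of 20 or more counts per library. In these data edgeR recovered 79.5% with 10.2% of its calls false, and DESeq2 83% with 14.9%. Proteasome genes at a mean of 20 CPM or more had fitted log2 fold changes from -0.25 to 0.40. Recovery of changes that small was not simulated, so these shares do not give the power to find them.

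Named genes were the catalytic subunits and their immunoproteasome counterparts, the PA28, PA200 and PI31 genes, the gene with the smallest p in each direction in each structural group, those with the highest and lowest level per length, and for the other pathway genes the 3 smallest p in each direction, 1 of which is not reported here, and Nfe2l1. Psma3, Psmb3, Psmd2, Psmd5, Psmd8, Psmd11, Psmc1, Psmd10 and Psme2b were added after their values were seen.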

Additional observations from a re-analysis of the deposited data

Results flagged for a closer look

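Reads of Psmb6-ps2, a processed pseudogene of Psmb6 that the selection of protein-coding genes leaves out, were counted at 15, 45 and 0 in F4/80high and at 15, 28 and 0 in F4/80low replicates 1 to 3. The value of 45 lies above the 3 counts that a count of 0 allows. Psmb6 itself can share reads with such a copy, and how the counting split them is not given in the sources used here.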

How the results depend on the processing

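None of the 46 genes was called under any alternative run, by adjusted p with or without the fold requirement, and none had an unadjusted p under 0.05 in any of them. Few of all genes were called in these runs, as given below, so a count of 0 by adjusted p is no sign of robustness. The share of all genes with an unadjusted p under 0.05 was counted in the main fit alone, so that count of 0 cannot be weighed in the other runs. Their median log2 fold change ran from 0.08 (without replicate 1) to 0.19 (library size alone, which moved the median of all genes to 0.04). Over all genes, the count called by adjusted p and fold was 76, and it became 357 with DESeq2, 48 with at least 10 counts in every library, 27 with all biotypes, and 16 (without replicate 3) to 315 (without replicate 1) when a replicate pair was left out. By adjusted p alone it was 76, and became 487, 48 and 27 under the same alternatives, 116 with at least 1 count and 16 to 316 with a pair left out. Without the replicate block it was 0, with or without the batch term, so the background share rests on the pairing, and a count of 0 among the 46 says nothing there. The causes were not tested. Of 361 values of 33 named genes under 11 alternatives, 350 kept their sign. Those that turned did so without 1 replicate pair, over which the values ran from -0.31 to 0.20 for Psmb8, -0.34 to 0.11 for Psme1, -0.39 to 0.020 for Psme2 and -0.17 to 0.10 for Psmb4 (the highest without replicate 2), from -0.40 to 0.24 for Psmc2, -0.22 to 0.13 for Psmd14 and -0.25 to 0.0011 for Psmg4 (the highest without replicate 3, where Psmb4 was at 0.0094), and from -0.019 (without replicate 1) to 0.22 for Psma2. Psmb4 also turned with library size alone (0.039) and with all biotypes (0.017). The log2 ratio of Psmb8 to Psmb5 ran from -0.36 to 0.16 (without replicate 2). Replicate 3 had 18917 and 18667 counts over the 46 genes, against 149821 to 253798 in the others, which limits the precision of pair 3.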

Other observations

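Ddi2, which encodes the protease known to cleave Nfe2l1, was at 34.7 and 49.7 CPM in F4/80high and 43.4 and 34.3 CPM in F4/80low replicates 1 and 2, and at 1134 and 1348 CPM in replicate 3. It was chosen after its values were seen.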
